A study of Schistosoma mansoni with 6 samples.

Results

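Aspartic peptidases of the A01 family were described in female Schistosoma mansoni, a blood fluke, through 6 genes of the 10831 in the deposited table. These were Smp_132480, Smp_136830, Smp_197470, Smp_018800 and Smp_205390, each annotated as an unassigned peptidase of subfamily A1A in the A01 family, and Smp_136730, annotated as the lysosomal aspartyl protease cathepsin D. The 6 genes had been chosen with their tail and head levels in view, so their differences between tails and heads are given as a description and carry no test. The annotation put 5 further genes in the family, which were used for comparison, and made 11 A01 genes in all. Tails were body fragments from behind the ovary and heads were fragments from in front of it, cut from adult females that had been recovered from infected mice at 7 to 8 weeks p.i. Neither group had received a treatment, and no strain was given for the worms. Each group had 3 libraries, each made from about 100 fragments pooled from many worms. The study names 3 independent rounds of RNA extraction. Whether the tails and heads of a round came from the same worms is not stated.

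Peptidases of the A01 family, to which pepsin, renin and cathepsin D belong, cut proteins with a pair of aspartate residues in the active site. They are made as inactive precursors and most work at acid pH. Adult schistosomes feed on host blood, and cathepsin D of the intestine is known to open the digestion of haemoglobin, which is continued by the cysteine peptidases cathepsin B, C and L and by exopeptidases. The study expected the intestine to be spread evenly along the body and the posterior to be mostly vitellaria, the yolk-forming glands.

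Levels were normalized counts, that is, the reads of a gene divided by a size factor that scales its library to the others. The deposited values were means over the 3 libraries of a group, from which whole reads of single libraries were solved. Libraries are named here by size factor. The tail libraries, 0.72, 0.35 and 0.32, held an estimated 5250000 to 11820000 reads on genes, and the head libraries, 2.55, 2.35 and 2.08, held 25440000 to 31140000 reads. A total of 3 reads over a group stood for a mean normalized count of 2.16 in tails and 0.43 in heads, so low levels were less precise in tails. The labels of the groups were checked on marker genes. All 7 vitellarian genes were higher in tails, by 6.09 to 7.03 on the log2 scale, and the 6 oesophageal gland genes localized by in situ hybridization were higher in heads, with tail over head log2 ratios of -7.69 to -6.15. Both lists included genes the study had picked from these libraries. In RNA of whole fragments, fewer cells of a type and less RNA per cell cannot be told apart.

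Of the 6 chosen A01 genes, 5 had a tail mean at least 8-fold below the head mean, and cathepsin D Smp_136730 was higher in tails. Over all genes with a mean of at least 10 normalized counts, 179 of 8774 (2.04%) were lower in tails by 8-fold or more and 139 (1.58%) were higher by as much. Since these ratios chose the genes, nothing is read from that contrast.

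Smp_136830 had 1.39, 0 and 3.13 normalized counts in the tail libraries 0.72, 0.35 and 0.32, against 289.7, 215 and 334 in the head libraries 2.55, 2.35 and 2.08. These values stood for 1, 0 and 1 reads in tails and 739, 505 and 696 reads in heads. The groups did not overlap, and the tail level was at the edge of what the depth can show. The mean was 1.51 ± 1.57 in tails and 279.6 ± 60.2 in heads (SD, n = 3 each), a log2 ratio of -7.54. By summed reads the log2 ratio was -7.59, with a 95% interval from counting of -10.64 to -5.74, which leaves out variation between libraries.

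Smp_197470 had 1.39, 0 and 6.26 normalized counts in the tail libraries, from 1, 0 and 2 reads, against 264, 206 and 318 in the head libraries, from 673, 484 and 663 reads. Its tail mean was 2.55 ± 3.29 and its head mean 263 ± 56.1 normalized counts (SD, n = 3 each), a log2 ratio of -6.69. The tail mean rested mostly on the library 0.32, and the log2 ratio was -8.56 without it. The same library held 1 of the 2 tail reads of Smp_136830, whose log2 ratio was -8.65 without it.

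Smp_018800 had no read in any tail library. The head libraries held 85.5, 53.6 and 69.6 normalized counts of it, from 218, 126 and 145 reads. With 3 reads over the group set in place of 0, its level was 32.3-fold lower in tails (head mean 69.6 ± 15.9 normalized counts, SD, n = 3). That fold takes the head mean as exact. By summed reads, the 95% counting interval of the log2 ratio ended at -4.72. Both leave out variation between libraries.

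Smp_205390 was likewise without a read in the tail libraries, against 62.7, 39.6 and 70.1 normalized counts in the head libraries, from 160, 93 and 146 reads. With 3 reads set in place of 0 it was 26.6-fold lower in tails (head mean 57.5 ± 15.9 normalized counts, SD, n = 3). Its 95% counting interval ended at a log2 ratio of -4.42, with the same limits. Whether either transcript was present in tails below 3 reads over the group could not be detected at this depth.

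Smp_132480 was the only one of the 5 lower genes with reads in each tail library. Counts are not scaled to transcript length, so its level cannot be ranked against those of the other genes. It had 15.3, 14.2 and 6.26 normalized counts in the tail libraries, from 11, 5 and 2 reads (mean 11.9 ± 4.93, SD, n = 3). Its head level is known only as the authors' mean of 1670 normalized counts, because it lay above the highest head mean searched, 400. The log2 ratio was -7.13, and the tail mean was 0.713% of the head mean.

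The 4 genes with reads solved in both groups had 5 tail reads and 4648 head reads in sum. In all 4 of them each tail library lay below each head library. So it was in 1817 (47.8%) of the 3802 genes with reads solved in both groups and 10 or more reads in total. Another 922 (24.3%) had each tail library above each head library. By group mean, 4377 of the 8774 genes with a mean of at least 10 were lower in tails and 4397 higher. The solved genes thus do not stand for all genes. The 4 genes were chosen with these levels in view, so nothing is read from their pattern.

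**Figure D1:**
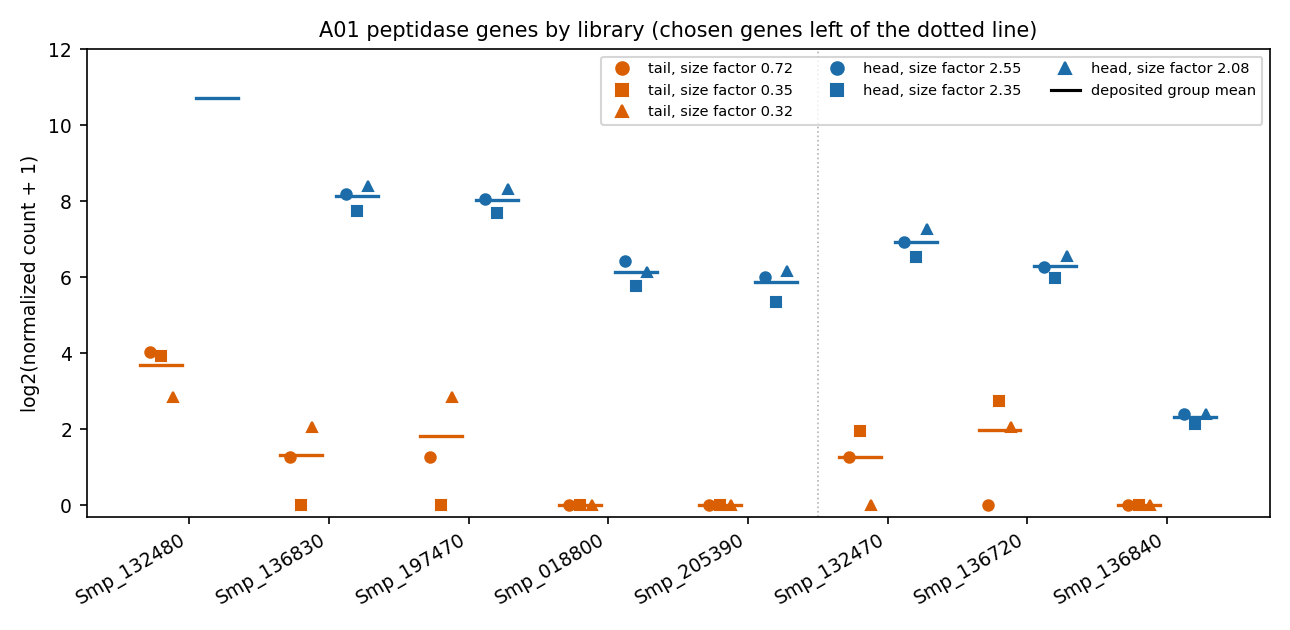
Normalized counts, as log2(normalized count + 1), of 8 A01 genes in the 3 tail libraries (orange) and the 3 head libraries (blue), with horizontal bars for the group means. Tail values lie at 0 to 15.3 normalized counts, below each head value of the same gene, and Smp_132480 has only a group mean in heads.

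Cathepsin D Smp_136730 stood apart from the other 5. Its authors' mean was 38081 in tails, against 14559 in heads, 2.62-fold higher in tails (log2 ratio 1.39), and both means lay above the range in which reads were solved. It took 0.232% of all counts in tails and 0.119% in heads. Summed over genes, the tail means exceeded the head means by 0.43 on the log2 scale, and with totals set equal the log2 ratio of Smp_136730 was 0.96. A second gene annotated as cathepsin D, Smp_013040, had a mean of 23666 in tails and 28225 in heads (log2 ratio -0.25). With no library values for either gene, the difference between these ratios could not be set against the spread between replicates.

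The other genes of the family were then tested with limma on log2(normalized count + 1), with Benjamini-Hochberg adjustment over all 3802 genes that could be tested. Genes were called at an adjusted p under 0.001 and a log2 ratio of at least 3 in size. At that rule 101 genes (2.66%) were lower and 69 (1.81%) were higher in tails. Of the 5 other A01 genes 3 could be tested, and 2 were called lower. Smp_132470, Smp_136720 and Smp_136840 had 842, 534 and 28 head reads against 2, 3 and 0 tail reads. They thus met the minimum of 10 reads over the 6 libraries only through the heads. A call of higher was not open to them, so nothing about the family is read from these calls. All 3 had lower means in tails, and the 1 gene of the list that was 8-fold higher by its means, Smp_175560, lay beyond the range of solved reads, so that it could not be called. The middle one of the 5 log2 ratios was that of Smp_136840 at its detection bound, -0.90, which is a limit of depth and no measured level, and the median over all genes with reads was 0.06.

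The first of these calls was Smp_132470, annotated as cathepsin D-like protease 3. It had 1.39, 2.84 and 0 normalized counts in the tail libraries, from 1, 1 and 0 reads, against 121, 91.9 and 152 in the head libraries, from 309, 216 and 317 reads. It fell in tails with a limma log2 ratio of -5.84 (SE 0.53, limma adjusted p = 0.000134), and by summed reads the log2 ratio was -6.39 with a counting interval of -9.44 to -4.53.

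The second was Smp_136720, another A1A peptidase. It had 0, 5.67 and 3.13 normalized counts in the tail libraries, from 0, 2 and 1 reads, against 75.7, 62.2 and 93.6 in the head libraries, from 193, 146 and 195 reads. Its limma log2 ratio was -4.67 (SE 0.67, limma adjusted p = 0.000854), and that by summed reads was -5.15 with a counting interval of -7.43 to -3.59. With any 1 head library left out neither gene passed the adjusted p of 0.001, although both kept their direction, with limma adjusted p of 0.00189 to 0.00725. Smp_136720 also missed it without the tail library 0.35 or 0.32, at limma adjusted p of 0.0010 and 0.00378, and its limma log2 ratio was -3.88 without the tail library 0.72.

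Smp_136840, also of subfamily A1A, was close to the detection limit. It had no tail read, against 4.31, 3.41 and 4.32 normalized counts in the head libraries, from 11, 8 and 9 reads. The limma log2 ratio of -2.32 (SE 0.35, limma adjusted p = 0.000997) was under the minimum of 3 and depends on the pseudocount. With 3 reads over the group set in place of 0, the level was 1.86-fold lower in tails. The counting interval ended at a log2 ratio of -0.50.

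Smp_175560, annotated as beta site APP cleaving enzyme 1, an aspartic peptidase that in mammals cuts the amyloid precursor protein in the membrane, had the opposite distribution. Its authors' mean in tails was 3117 normalized counts, against 12.5, 43.8 and 105 in the head libraries 2.55, 2.35 and 2.08 (mean 53.8 ± 47.1, SD, n = 3). The log2 ratio of the means was 5.86, with no test because tail reads were not solved. The 3 head libraries differed widely for this gene, and the library 2.08 held the most.

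Both vitellarian genes with solved head reads had the same order among the heads. The tyrosinase Smp_050270, an enzyme of eggshell hardening, had a mean of 27111 normalized counts in tails, against 8.63, 196.7 and 514 in the head libraries 2.55, 2.35 and 2.08. The tyrosinase Smp_013540 had 3.53, 67.3 and 262 in the same heads, and all 7 vitellarian genes together took 4.62% of all counts in tails and 0.0665% in heads. Their part in the levels of Smp_175560 was not tested.

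Of the 11 family members, 7 lay side by side in the genome. In the RefSeq annotation of assembly ASM23792v2, in which all 11 A01 genes were found, chromosome 3 carried 7 consecutive protein-coding genes that were all of the family. In order they were Smp_136830, Smp_197470, Smp_136720, Smp_136840, Smp_018800, Smp_132470 and Smp_132480, of which 4 were among the chosen genes. All 7 had a lower mean in tails than in heads, as had 5104 of the 9947 genes with reads. The 4 chosen genes had been picked with these levels in view, and Smp_136840 had 0 tail and 28 head reads. Nothing about the run is therefore read from this count. The spans of Smp_197470 and Smp_136720 overlap that of Smp_136830, and neighbouring copies of a gene can share reads, so the values of these genes may not be independent of each other.

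The neighbours of the run did not share 1 direction. On one side, Smp_197460, a myelin proteolipid, averaged 113 (tails) and 98.7 (heads) normalized counts, with a limma log2 ratio of 0.14 (SE 0.27, limma adjusted p = 0.658). On the other side, Smp_132490, a hypothetical protein, had a mean of 4.40 in tails and 12.1 in heads, with a limma log2 ratio of -1.75 (SE 0.78, limma adjusted p = 0.0821). The next gene, Smp_132500, with ras and EF hand domains, had no tail read and a head mean of 60.7 (limma adjusted p = 5.41e-05). With 3 reads over the group set in place of 0, it was 28.1-fold lower in tails. Its counting interval ended at a log2 ratio of -4.51.

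The remaining A01 genes lay elsewhere. Cathepsin D Smp_136730 was on the same chromosome with 14 protein-coding genes between it and the run, and Smp_013040 was a further 336 genes away. Smp_175560 was on chromosome 2, and Smp_205390 was on a sequence not placed on a chromosome. Outside the run, Smp_205390 and Smp_013040 were also lower in tails by their means, the second with a log2 ratio of only -0.25, and Smp_136730 and Smp_175560 were higher.

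**Figure D2:**
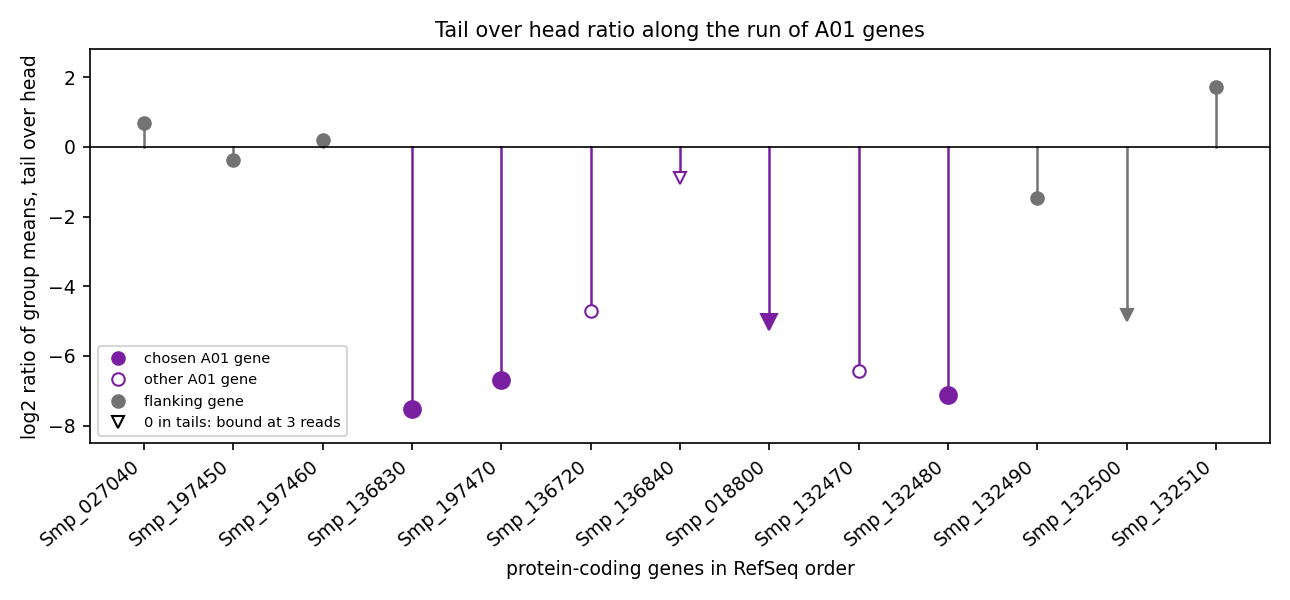
Log2 ratio of group means, tail over head, of 13 neighbouring protein-coding genes in RefSeq order, with chosen A01 genes as filled purple symbols, other A01 genes as open purple symbols and flanking genes in grey. All 7 A01 genes of the run lie below 0, at -7.54 for Smp_136830, and the chosen genes had been picked with these levels in view. The triangles are genes without a tail read at the bound of 3 reads over the group.

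The head libraries differed in the level of these genes, a comparison within 1 group that the choice of the genes had not used. It was made after the values were seen and is given without a test. The 4 chosen genes with solved reads, and Smp_132470 and Smp_136720, were all lowest in the head library 2.35, at 0.689 to 0.806 of their own head means. Head reads were solved for 2436 genes whose head mean was 50 or more, of which 547 (22.5%) were lowest in that library, and the median level there was 1.02 of the head mean. Of the 54 genes outside the family that were called lower in tails and reached this head mean, 12 (22.2%) were lowest in it.

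The share of head reads in this library was given with intervals that cover counting error only, for a library and genes singled out after their values were seen. The library 2.35 made up 33.6% of the summed size factors of heads. It held 26.0% of the head reads of Smp_136830 (95% exact Clopper-Pearson interval 24.09 to 28.04%), 26.6% of those of Smp_197470 (24.6 to 28.7%), 25.8% of those of Smp_018800 (21.9 to 29.9%) and 23.3% of those of Smp_205390 (19.2 to 27.8%). The same share was 25.7% for Smp_132470 (22.7 to 28.7%) and 27.3% for Smp_136720 (23.6 to 31.3%). The interval of Smp_136840, with 28 head reads, was 13.2 to 48.7%. The coefficients of variation of the 6 genes over the heads were 20.4 to 27.7%, against a median of 7.62% over the 2436 genes.

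The highest library was 2.08 for each of these genes except Smp_018800, which was highest in 2.55. Among the genes that overlap, the ratio of Smp_136830 to Smp_197470 was 1.10, 1.04 and 1.05 in the libraries 2.55, 2.35 and 2.08, and that of Smp_136830 to Smp_136720 was 3.83, 3.46 and 3.57. Both ratios varied less over the heads than the levels of the genes themselves.

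**Figure D3:**
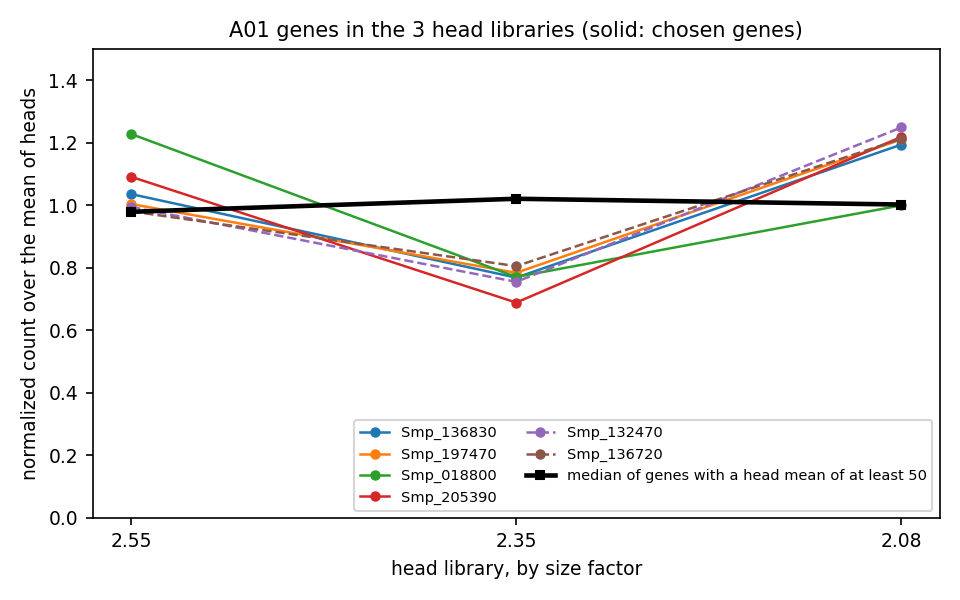
Normalized count in each head library over the mean of the 3 heads, for 4 chosen A01 genes (solid), 2 other A01 genes (dashed) and the median of 2436 genes (black). The 6 A01 genes dip to 0.689 to 0.806 in the library 2.35, where the median of the genes is 1.02.

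Other peptidases and helper proteins of blood digestion, or of the same steps of protein breakdown, were described as a list of 30 genes, chosen by annotation from cathepsins B, C, F, L and S, haemoglobinases of family C13, aminopeptidases of families M01 and M17, and saposins. Saposins are small proteins that bind membrane lipids. By group mean 20 of the 30 were lower in tails and 10 higher, with a median log2 ratio of -0.28 against 0.06 over all genes with reads. By means, 1 of the 30 was at least 8-fold lower and 0 were higher by as much. Of the 5 that could be tested 0 were called by limma at the rule above, and at an adjusted p under 0.05 the list had 2 lower and 1 higher, as at an unadjusted p under 0.05. That looser rule took 1585 genes lower (41.7%) and 825 higher (21.7%) of all tested, a set without the genes of high mean. The list held 4.83% of all counts in tails and 7.28% in heads.

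The 4 genes of the list with the most counts had log2 ratios from -0.67 to 0.53. The saposin Smp_105420 had 131579 normalized counts in tails and 134873 in heads (log2 ratio -0.04), the saposin B domain protein Smp_194910 had 90375 in tails and 144231 in heads (-0.67), the saposin Smp_105450 had 94330 in tails and 65181 in heads (0.53), and the cathepsin B-like Smp_103610 had 64826 in tails and 81180 in heads (-0.32). The ratio of cathepsin D Smp_136730, 1.39, lay above the highest of the 30, that of the peptidase SmCL2 Smp_139160, which had 78389 normalized counts in tails and 32614 in heads (1.27). Both genes were picked after their values were seen, SmCL2 for mention and Smp_136730 as a chosen gene. Neither has library values, so nothing is read from the order of their ratios. A narrower list of 21 genes was taken as intestinal by annotation alone, without the A01 genes. It had a median log2 ratio of -0.26 and none with an 8-fold difference, although cathepsin B Smp_105370, at -2.99, fell just short of it.

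The gene of the list that was 8-fold lower was the aminopeptidase Smp_174530, of family M01, whose members remove residues from the N-terminus of peptides. Its mean was 37.8 normalized counts in tails, from 29, 18 and 7 reads, and 4229 in heads (log2 ratio -6.81). The tail mean was 0.893% of the head mean, a share within the 0.539 to 0.971% found for Smp_132480, Smp_136830 and Smp_197470.

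The 6 oesophageal gland genes seen by in situ hybridization had tail means of 0.484 to 1.41% of their head means, with a median log2 ratio of -7.49, and together took 0.00481% of all counts in tails and 0.922% in heads. These genes were found through their head levels, so that their ratios are no independent yardstick. A wider list of 29 genes took in all annotated micro-exon genes, wherever they are expressed, and had a median log2 ratio of -1.10. Of the 19 with a mean of at least 10 normalized counts, 10 were at least 8-fold lower in tails and 1 was higher by as much. The higher one was MEG-2 Smp_159830, at 134 normalized counts in tails and 1.40 in heads (log2 ratio 6.57). Markers of the Mehlis' gland and ootype were low in tails too, with 3 of 3 at least 8-fold lower, and the ovary marker Smp_159920 had a log2 ratio of -4.51. The part of any of these tissues in the levels of the A01 genes was not tested.

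**Figure D4:**
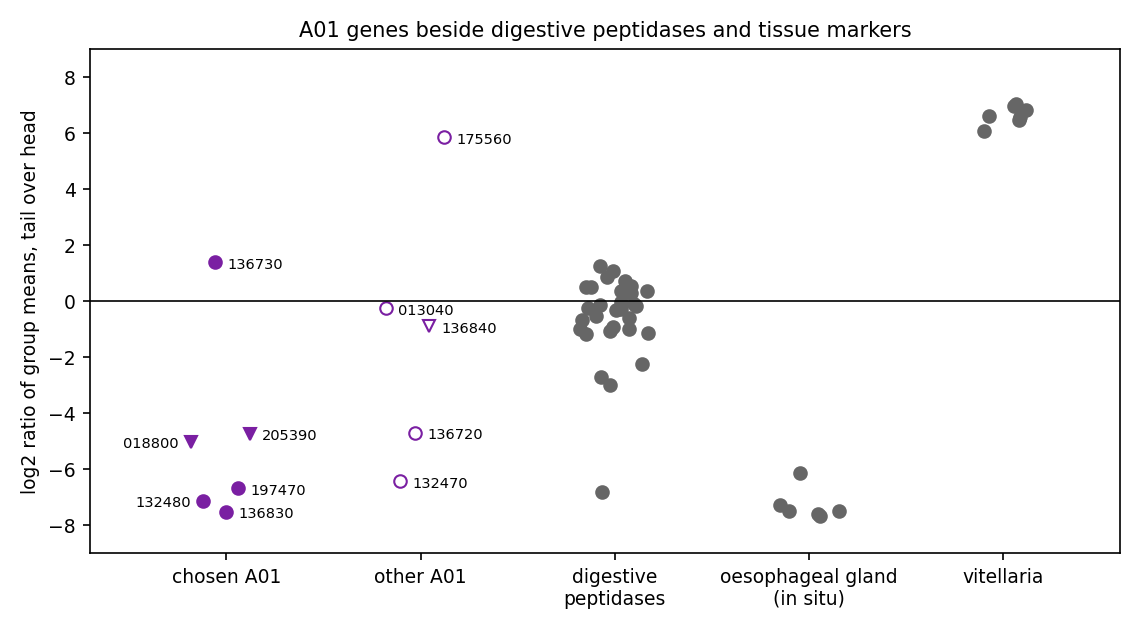
Log2 ratio of group means, tail over head, of the chosen A01 genes and the other A01 genes (purple, labelled by the digits of the gene name), 30 digestive peptidases, 6 oesophageal gland genes and 7 vitellarian genes (grey). Triangles are genes without a tail read at the bound of 3 reads, 8 of the A01 genes lie at -0.90 or lower with Smp_136840 at its bound, and all but 1 of the digestive peptidases lie between -2.99 and 1.27.

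Genes with a pattern like that of the A01 genes were sought over the 6 libraries. The profile was the mean of the 4 chosen genes with reads solved in both groups, each as log2(normalized count + 1) less its own mean, and genes with a mean of at least 10 were ranked by Euclidean distance to it. Only the 3206 of them with reads solved in both groups could be ranked, which left out Smp_132480, Smp_174530 and other genes with high means. Within that limit the nearest outside the family were Smp_138260, a hypothetical protein, at 0.95, Smp_123100, a hypothetical protein, at 1.34, Smp_138270, annotated as diaminopimelate epimerase, at 1.35, Smp_132500, the gene beside the run, at 1.43, and Smp_151920, annotated as paladin, at 1.64. The 4 chosen genes lay at 0.96 to 1.21, distances that are short because these genes made the profile. Smp_132470 lay at 2.36 and Smp_136720 at 3.20, and nothing is read from their difference to the chosen genes. Smp_138260 averaged 1.97 normalized counts in tails and 201 in heads, and Smp_123100 averaged 1.51 in tails and 313 in heads. In tails these levels rest on few reads, which limits the order among the nearest genes. Smp_138260 had 214, 175 and 215 normalized counts in the head libraries 2.55, 2.35 and 2.08, and Smp_138270 had 121, 96.6 and 127. Both were thus also lowest in the head library 2.35, while Smp_123100, Smp_132500 and Smp_151920 were not. The ranking used these head values.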

How the data were processed

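RNA was sequenced from 3 tail and 3 head samples of adult females with a stranded kit. Per the submitters' processing notes, reads were mapped with STAR 2.5.0b and compared with DESeq 1.22, and the genome was named WormBase ParaSite v4 in the study's methods. The tool that counted reads, and its use of strand, are not given in the sources used here. Deposited signal values are means, over all libraries, over heads and over tails, of read numbers that the authors scaled by the size factors of DESeq, given to 10 significant digits. The remaining columns hold the authors' ratio of tail over head, its log2, and the p-value and adjusted p-value of their test. These were not used. The table has 0 columns of single libraries.

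Whole reads of single libraries were solved from each group mean with 3 size factors found from the low means. All 6441 tail genes above 0 with a mean up to 1000 had 1 solution, and so had 4331 of 4593 head genes (94.3%) with a mean up to 400, a limit chosen after seeing the data. Tested on simulated data, the 1429 tail genes and 1364 head genes with 1 solution were all right. The simulated means were made and solved with the same size factors, so that 1 solution could not be wrong. Error in the size factors was not tested. The numbers in the labels of the samples could not be tied to these libraries. Genes without a solution have only the authors' mean, with no SD. Because the table holds means and no reads of libraries, the test was limma 3.58.1 in R 4.3.3 on log2(normalized count + 1), two-sided and with a trend of variance on mean. It took 3802 genes whose reads were solved in tails and heads and came to 10 or more in total. Tested on simulated data over 3755 genes, limma called 100 of 100 genes changed 16-fold, 100 of 100 changed 32-fold and 0 of 3555 unchanged ones. The simulation gave every gene the same spread beyond counting error and changed only genes above a minimum mean. It therefore does not give the power for genes with few tail reads, or the error rate where spread differs between genes. Nothing in the sources says more of the independence of the libraries than the 3 rounds of extraction, so p-values measure the spread between these libraries. Counting intervals are 95% exact intervals and cover counting error only.

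The members and lists were chosen with earlier results of these data known. Named genes were the 6 chosen genes, the other A01 genes, the 4 most abundant genes of each other list and its genes with a log2 ratio of at least 3 in size (of the tissue markers only examples are given), and the 5 genes nearest in pattern. Of 10831 genes, 10579 matched RefSeq assembly ASM23792v2, which was used only for chromosomes and gene order. Pseudocount, scaling, trend, minimum of reads and leaving out each library were varied.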

Additional observations from a re-analysis of the deposited data

How the results depend on the processing

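No paired analysis was possible because the deposited columns carry no replicate numbers. Of the 6 chosen genes, the 5 at least 8-fold lower in tails became 3 with a pseudocount of 10, where Smp_018800 and Smp_205390 had log2 ratios of -2.99 and -2.75, and stayed 5 with a pseudocount of 1 or equal totals. The count was also 5 with 1 library left out, but Smp_132480 could not be recomputed without a head library, and Smp_018800 and Smp_205390, with 0 tail reads, were not recomputed without a tail library. Setting totals equal moved each log2 ratio by -0.43 and turned none of the 6 round.

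Over all genes, leaving out 1 library gave 4 to 190 genes called lower by limma (101 with all libraries) and 18 to 61 called higher (69 with all). Lower calls numbered 190 without the tail library 0.72, 63 without the tail library 0.32, 14 without the head library 2.55, 4 without 2.35 and 8 without 2.08. Higher calls numbered 40 without the tail library 0.32, 41 without the head library 2.55, 18 without 2.35 and 31 without 2.08. The cause was not tested. Of the 2 other A01 genes called lower, 1 was called without the trend and 1 with no minimum of reads, where Smp_136720 missed the threshold (limma adjusted p = 0.00231 and 0.00126), and 0 to 2 with 1 library left out. With a pseudocount of 0.5, Smp_136720 had a limma adjusted p of 0.00224 and Smp_136840 was called (log2 ratio -3.17). In these fits no direction turned. Tail reads of 0 to 11 per library limit the ratios of the 5 lower chosen genes and of Smp_132470, Smp_136720 and Smp_136840.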
